A study of Rattus norvegicus with 183 samples.

Results

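The libraries compared here are RNA libraries of the posterior ventral tegmental area of the rat, a ventral midbrain region that holds dopamine neurons. They were divided by their level of 3 genes of fibroblasts. The series describes 183 samples of this region, of which 152 have values and 31 are labelled as removed and were not used. Of the 152, 11 libraries with under 10 counts per 1e6 counts of the library (CPM) of Th were left out. Th encodes tyrosine hydroxylase, the enzyme that dopamine neurons need to make dopamine. The remaining libraries were chosen by their measured values, ranked on the mean log2(CPM + 1) of Col1a1, Dcn and Lum, a fibrillar collagen chain and 2 proteoglycans of connective tissue. The 30 highest are called meninges-rich, the 30 lowest meninges-poor, and 81 fell on neither side. Fibroblasts around vessels share the ranking genes, so these names do not tell them apart from fibroblasts of the meninges. All groups are outbred heterogeneous stock rats with no treatment named, and each library was made from polyA RNA of 1 tissue. The labels give no sex, age, batch or dissection protocol, so the sides rest on expression alone. The form of the identifier divides the libraries, and 4 of the rich and 3 of the poor libraries carry a label that the submitters changed to mend a genotype mismatch. Without these relabelled libraries 399 genes were higher and 70 lower by the threshold of 1 log2 unit used below, against 399 and 51 with them. Decimal identifiers were carried by 9 of the meninges-rich and 13 of the meninges-poor libraries, and hexadecimal ones by 21 and 17 of them (Fisher's exact test, two-sided, p = 0.422).

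The meninges are the membranes that cover the brain. Their inner layers, the arachnoid and the pia, are built by fibroblasts that secrete collagen, proteoglycans and basement membrane, carry transporters for solutes of the cerebrospinal fluid, and release signals such as retinoic acid, bone morphogenetic proteins and insulin-like growth factor 2. Arteries run through these membranes, macrophages live in them, and beneath the pia the endfeet of astrocytes form the glia limitans. The ventral tegmental area lies close to the ventral surface of the midbrain, beside the interpeduncular nucleus and the roots of the oculomotor nerve.

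Col1a1 had 78.3 CPM in the lowest, 144 CPM in the median and 317 CPM in the highest meninges-rich library, against 7.68, 17.2 and 25.0 CPM in the meninges-poor libraries. Dcn had 32.3, 48.4 and 113 CPM in the rich libraries, against 5.45, 7.98 and 19.8 CPM in the poor ones. Lum had 23.5, 33.6 and 59.3 CPM in the rich libraries, against 1.91, 5.01 and 12.1 CPM in the poor ones. These values chose the sides and carry no test. The ranking had no natural break at its upper limit. The score of the 30th library was 5.60678 and that of the 31st, just outside, was 5.60677, while at the low end the last library inside scored 3.70 and the next one outside 3.76. The mean score was 6.02 on the rich side and 3.29 on the poor side.

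**Figure D1:**
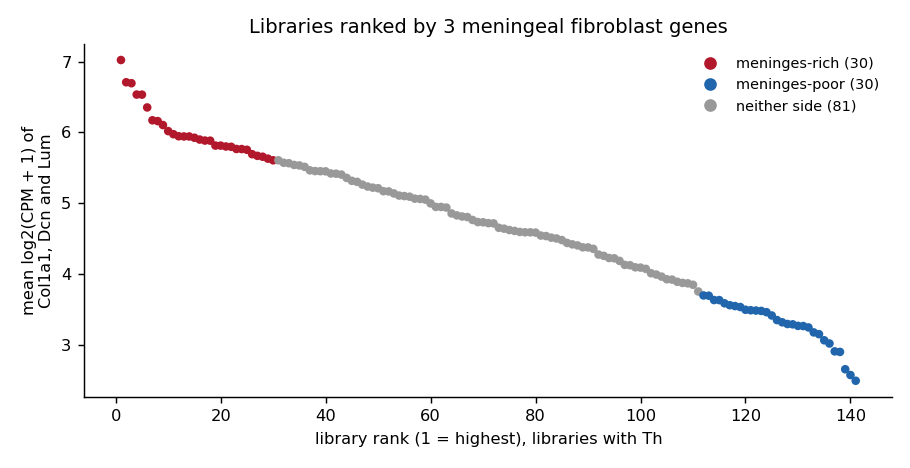
Ranking score, the mean log2(CPM + 1) of Col1a1, Dcn and Lum, by rank in the libraries with Th, with the meninges-rich libraries in red, the meninges-poor ones in blue and the 81 others in grey. The scores fall without a step at the 30th library, whose score of 5.60678 adjoins the 5.60677 of the next.

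Totals ran from 17.7 to 43.3 M estimated counts (M stands for 1e6) in the rich libraries, with a median of 23.7 M, and from 15.5 to 51.99 M in the poor libraries, with a median of 24.7 M, and the mean log2 totals differed by -0.11 (two-sided permutation test, p = 0.257). Xist, which is expressed from the inactive X of female cells, exceeded 100 CPM in 17 rich and 18 poor libraries. Slc17a7, a glutamate transporter gene of cortical neurons, exceeded 100 CPM in 1 rich library and in none of the poor ones. The pituitary marker list summed to over 100 CPM in 3 rich libraries (14252, 1444 and 317 CPM) and in 1 poor library (100.5 CPM), beside medians of 3.91 CPM on the rich and 3.15 CPM on the poor side. Growth hormone (Gh1), at 9740 CPM, made up most of the highest sum, Pomc, a precursor of pituitary hormones that hypothalamic neurons also express, at 1353 CPM most of the next, and prolactin (Prl), at 259 CPM, most of the third. Without these 4 libraries every named gene kept its direction and its side of the threshold.

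Across 15543 genes tested with limma and Benjamini-Hochberg adjustment, 7716 (49.6%) were higher and 2897 (18.6%) lower in the meninges-rich libraries at an adjusted p under 0.05. The median difference of all genes was 0.12 on the log2(CPM + 1) scale when libraries were scaled to their totals, and 0.0014 when they were scaled by median-of-ratios size factors. With the second scaling 5141 genes (33.1%) were higher and 5201 (33.5%) lower, so that 49.7% of the called genes were higher, against 72.7% under total scaling. A call alone therefore says little here, and sizes are read against 0.12. Counts of list members called higher or lower are to be read beside the 49.6% and 18.6% of all genes. At least 1 log2 unit beyond that median, 399 genes (2.57%) were higher and 51 (0.328%) lower. The 2 sides did not overlap at all for 199 genes that were higher (1.28%), and for none that were lower (0%). Because 3 genes of the same libraries set the sides, a difference is the tie of a gene to those 3 and not the effect of a condition. In such bulk samples fewer cells of a type and less RNA per cell cannot be told apart.

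The fibroblast markers went the way of the ranking genes. Of 24 markers of meningeal fibroblasts 23 passed the filter on low values, and all 23 were called higher, with a median difference of 2.12. As these genes belong to the cells that the ranking genes mark, the count is a description beside the 49.6% of all genes. Igf2, which encodes insulin-like growth factor 2, had 382, 916 and 2585 CPM (lowest, median, highest) in the meninges-rich libraries, against 19.9, 73.6 and 152 CPM in the poor ones. The lowest rich library thus lay above the highest poor one, and the medians differed 12.4 times. Aldh1a2, whose enzyme makes retinoic acid, had 15.5, 42.7 and 117 CPM in the rich libraries, against 0.508, 2.46 and 10.2 CPM in the poor ones, again with no overlap. Col1a2, the partner chain of Col1a1, had 97.2, 212 and 532 CPM in the rich libraries, against 5.55, 15.1 and 33.4 CPM in the poor ones.

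The members were not uniform. At the lower end of the list stood Pdgfra (difference 0.78), a receptor gene that oligodendrocyte precursors also express, Slc13a3 (0.67) and Bnc2 (0.55). Slc47a1, an organic cation exporter gene, varied most among the rich libraries of the 23 markers, with an SD of 1.46 log2 units against 0.67 for Igf2. It had 1.33, 6.64 and 108 CPM in the rich libraries, against 0.0466, 0.828 and 5.06 CPM in the poor ones, and 15 of the 30 rich libraries lay above the highest poor one. The library with the highest score of all had 2.01 CPM of Slc47a1 and the third highest had 108 CPM.

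The 10 genes with the greatest positive difference that agreed in sign in both identifier formats were Pappa2, Aldh1a2, Col1a2, Igf2, C7, Sfrp1, Aebp1, Col3a1, Cpz and Slc6a20a, from 3.77 for Pappa2 to 3.12 for Slc6a20a. Pappa2 encodes a protease that frees insulin-like growth factors from binding proteins, Sfrp1 a secreted Wnt antagonist, Aebp1 a collagen-binding protein, Cpz a carboxypeptidase that binds Wnt proteins, and Slc6a20a a proline transporter. Pappa2 had 7.27, 20.8 and 51.4 CPM in the rich libraries, against 0, 0.53 and 3.19 CPM in the poor ones. For all 10 genes the lowest rich library was above the highest poor one.

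**Figure D2:**
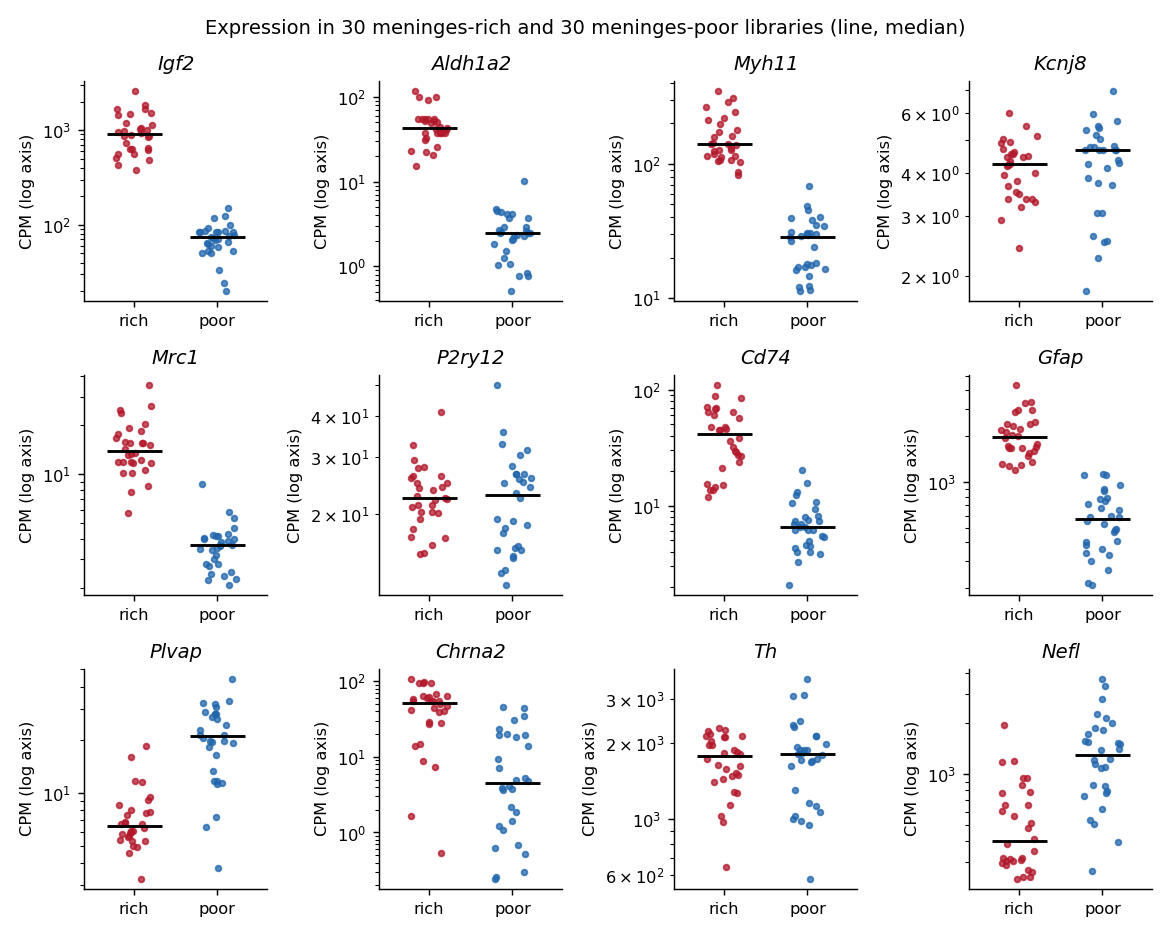
CPM on a log axis of 12 genes in each of the 30 meninges-rich libraries (left, red) and the 30 meninges-poor ones (right, blue), with the median as a line. Igf2, Aldh1a2, Myh11 and Gfap do not overlap between the sides, whereas Kcnj8, P2ry12 and Th have close medians, and Nefl is lower in the rich libraries with overlap.

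Extracellular matrix genes followed the fibroblast markers, and their counts too are given as a description. Of 26 collagen genes tested outside the ranking set and the basement membrane, 24 were called higher and none lower (median difference 0.98), and 10 of them did not overlap between the sides. Among all genes 49.6% were called higher, and 1.28% were higher without overlap. Col3a1, the chain of type III collagen, had 50.3, 85.9 and 189.7 CPM in the rich libraries, against 5.59, 9.09 and 17.0 CPM in the poor ones. Col6a3 and Col8a2 differed by 2.51 and 2.63, while Col9a3 (0.10) and Col19a1 (-0.01) did not pass the test. Among 9 small leucine-rich proteoglycans, which bind collagen fibrils, 8 were higher, led by Fmod (3.00), Ogn (2.81), Prelp (2.58) and Bgn (2.20). The exception was Chad, a proteoglycan known from cartilage, which was lower by 0.72 (1.504 CPM in the median rich library, against 2.90 CPM in the median poor one).

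All 16 basement membrane genes were higher, with a median difference of 1.22. This count and those that follow stand beside the 49.6% of all genes called higher. Lama1 (1.93) and Col4a6 (1.88), a laminin and a type IV collagen chain, were furthest apart, and Col4a1 and Col4a2, the chains found in every basement membrane, differed by 0.85 and 0.81. Of 23 matrix glycoproteins 22 were higher and none lower (19 and 1 under median-of-ratios scaling), with Fbln1 (fibulin) at 2.59, Eln (elastin) at 2.07 and Sparc at 0.22. Of 23 collagen processing genes 22 were higher, from Pcolce (2.54), an enhancer of procollagen cleavage, and the cross-linking enzyme Lox (1.80) down to the lysyl hydroxylase Plod3 (0.16), which is close to the all-gene median.

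Genes of secreted signals and their partners were unequal. In the retinoic acid pathway 11 of 12 genes were higher (9 under median-of-ratios scaling) and Crabp1 was lower. Aldh1a2 (3.70), Crabp2 (2.35), a binding protein, and Cyp26b1 (2.05), whose enzyme degrades retinoic acid, stood well above 0.12, while Rdh10 (0.12) and Dhrs3 (0.18) did not, and Rdh10 had no call and a difference of -0.00017 under median-of-ratios scaling. Crabp1, a cytoplasmic retinoic acid binding protein, had 1.53, 3.71 and 8.885 CPM in the rich libraries, against 1.02, 7.56 and 17.3 CPM in the poor ones (difference -0.85 ± 0.15 SE, limma adjusted p = 1.14e-06).

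Of 12 genes of the insulin-like growth factor system 10 were higher and 1 lower, with a median of 0.68. The ligand Igf2 and the binding proteins Igfbp2 (1.98) and Igfbp5 (1.83) led, whereas the receptors Igf1r (0.21) and Igf2r (0.31) lay near the all-gene median. Igf1r lost its call under median-of-ratios and upper quartile scaling, and its sign was negative in the decimal libraries alone (-0.02). Igfbp6 did not pass the test (-0.00, adjusted p = 0.990 with limma). Igfbp5 had 23.9, 44.7 and 89.7 CPM in the rich libraries, against 1.25, 15.2 and 37.8 CPM in the poor ones.

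Of 24 genes of bone morphogenetic protein, TGF-beta, Wnt and chemokine signalling, 22 were higher and none lower (17 and 0 under median-of-ratios scaling), with a median of 0.47, most of them by little. Sfrp1 (3.49), the ligands Bmp6 (3.05), Wnt6 (2.50) and Bmp7 (2.11), the chemokine Ccl19 (1.57) and the Wnt antagonist Dkk2 (1.49) formed the upper end. Wnt6 had 2.99, 6.75 and 23.3 CPM in the rich libraries, against 0.0240, 0.220 and 1.99 CPM in the poor ones. Bmp4 had medians of 11.3 and 10.9 CPM in the rich and poor libraries (difference 0.10, limma adjusted p = 0.436).

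Transcription factors of mesenchyme were higher for 18 of 19 genes tested, with a median of 1.25. The largest difference was that of Osr1 (2.53), followed by Tbx18 (2.02), the zinc finger genes Zic1 (1.94) and Zic2 (1.67), and Foxc2 (1.83). Foxc1, whose loss disturbs meningeal development in mice, had 7.81, 14.0 and 40.0 CPM in the rich libraries, against 2.76, 4.68 and 7.86 CPM in the poor ones, and 29 of 30 rich libraries were above all poor ones. The Notch target Heyl, a gene of vessel wall cells, did not pass the test (-0.06) and was called lower under median-of-ratios scaling (-0.19, limma adjusted p = 0.000316).

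Igf2 is an imprinted gene, expressed from 1 parental copy in most tissues, though not in all. The values here do not tell the parental copies apart. Of 23 imprinted genes tested 17 were higher and 2 lower (10 and 4 under median-of-ratios scaling), but only Igf2 and Cdkn1c exceeded the all-gene median by 1 unit. Among all genes 49.6% were called higher and 18.6% lower. Cdkn1c, a cell cycle inhibitor gene on the same chromosome 1, had 14.4, 32.7 and 75.98 CPM in the rich libraries, against 3.88, 7.19 and 10.1 CPM in the poor ones, with no overlap (difference 2.10 ± 0.11 SE, limma adjusted p = 1.55e-25). The others ranged from -0.53 (Snrpn) to 0.93 (Zim1 and Asb4), and Peg3 had medians of 1371 CPM in the rich and 1172 CPM in the poor libraries (difference 0.35).

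Barrier transporters divided in the same way. Of 13 tested 11 were higher and none lower (median 1.08). Slc13a4 (3.11), a sulphate transporter, Slc22a6 (2.86) and Slc22a2 (2.46), which carry organic anions and cations, Slc6a13 (2.64), a GABA and taurine transporter, and Slc7a11 (1.96), the cystine and glutamate exchanger, differed most. Slc7a11 had 64.04, 119 and 226 CPM in the rich libraries, against 16.1, 31.7 and 54.1 CPM in the poor ones, with no overlap. Abcg2, an efflux pump of capillary endothelium, did not pass the test (-0.06).

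**Figure D3:**
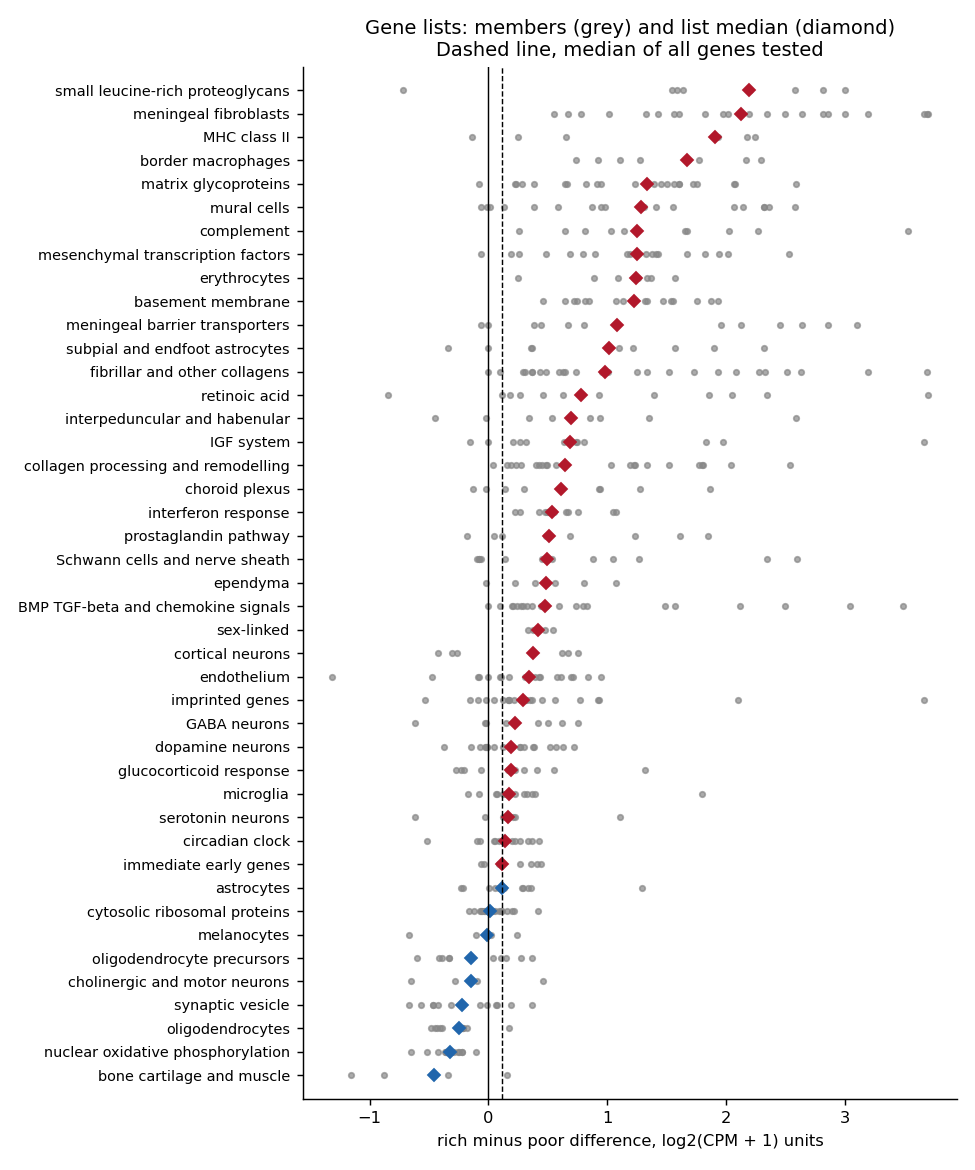
Difference between meninges-rich and meninges-poor libraries, in log2(CPM + 1) units, for each tested member (grey points) of the gene lists with at least 5 tested members, with list medians as diamonds, red above and blue below the dashed all-gene median of 0.12. The small leucine-rich proteoglycan (2.20), fibroblast (2.12), MHC class II (1.91) and border macrophage (1.67) medians lie furthest to the right, and the oxidative phosphorylation and oligodendrocyte medians are among those left of 0.

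Vessel genes were read by cell type. Of 19 genes of mural cells, the smooth muscle cells and pericytes of the vessel wall, 16 were higher and none lower (15 and 1 under median-of-ratios scaling), with a median of 1.29. Those of the smooth muscle contractile apparatus led. Myh11, the smooth muscle myosin heavy chain, had 82.5, 139 and 349 CPM in the rich libraries, against 11.2, 28.7 and 68.5 CPM in the poor ones, with no overlap (difference 2.58 ± 0.15 SE, limma adjusted p = 9.34e-23). Acta2, smooth muscle actin, had 66.03, 119 and 331 CPM in the rich libraries, against 13.5, 23.4 and 66.2 CPM in the poor ones. Only 1 rich library fell within the range of the poor ones for Acta2. Cnn1, Tagln, Des and Myl9 differed by 2.07 to 2.36.

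Of the mural genes, Kcnj8, Abcc9 and Higd1b, which mark pericytes of the brain capillaries, did not pass the test. The other 16 were called higher, among them Rgs5, Vtn, Cspg4 and Anpep (0.98), which are also used to mark pericytes. Kcnj8, a potassium channel gene, had 2.42, 4.24 and 5.99 CPM in the rich libraries, against 1.81, 4.66 and 6.935 CPM in the poor ones (difference 0.02 ± 0.07 SE, limma adjusted p = 0.851). Abcc9 and Higd1b differed by -0.06 and -0.01. Under median-of-ratios scaling Abcc9 was called lower (-0.18, limma adjusted p = 0.0235). Pdgfrb and Notch3, which smooth muscle cells and pericytes share, differed by 0.87 and 0.59.

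Endothelial genes moved little as a group, with 12 higher and 3 lower of 19 (11 and 4 under median-of-ratios scaling) and a median of 0.34. Beside these counts stand the 49.6% of all genes called higher and the 18.6% called lower. Vwf, which is richer in large vessels than in capillaries, had 44.8, 63.97 and 142 CPM in the rich libraries, against 24.8, 37.8 and 70.5 CPM in the poor ones (difference 0.84), and Cdh5, a junction gene of all endothelium, differed by 0.95. Cldn5, the tight junction gene of the blood-brain barrier, had medians of 97.3 and 90.0 CPM in rich and poor libraries and did not pass the test (0.09), though it did with 40 libraries a side (0.13, limma adjusted p = 0.0437). Mfsd2a, a lipid transporter gene of barrier capillaries, was lower by 0.48. Plvap, which marks fenestrated and other leaky vessels, had 3.26, 6.50 and 18.4 CPM in the rich libraries, against 3.78, 20.9 and 44.4 CPM in the poor ones (difference -1.31 ± 0.16 SE, limma adjusted p = 9.81e-11). In 20 poor libraries Plvap exceeded the highest rich one. Of 4 lymphatic genes tested, Lyve1, Pdpn and Flt4 were higher and Prox1 did not pass the test, and Lyve1 is also a macrophage gene.

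Immune genes were read for border macrophages, which live in the meninges and around vessels, and for microglia of the parenchyma. All 9 border macrophage genes tested were higher, with a median of 1.67. Mrc1, the mannose receptor, had 5.74, 13.9 and 35.4 CPM in the rich libraries, against 2.07, 3.64 and 8.74 CPM in the poor ones, and 27 of 30 rich libraries exceeded every poor one (difference 1.77 ± 0.11 SE, limma adjusted p = 2.64e-21). F13a1, a coagulation factor subunit made by such macrophages, had 4.51, 10.1 and 26.8 CPM in the rich libraries, against 0.258, 1.73 and 3.62 CPM in the poor ones, with no overlap. Cd163 and Colec12, a scavenger receptor and a collectin, differed by 1.27 and 2.30.

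The microglia list had a median of 0.17, near that of all genes, with 8 of 14 genes higher and 1 lower (5 and 2 under median-of-ratios scaling). The share that was higher is near the 49.6% of all genes. P2ry12, the purinergic receptor of resting microglia, had 15.1, 22.4 and 41.1 CPM in the rich libraries, against 12.1, 22.8 and 49.9 CPM in the poor ones (difference 0.07 ± 0.10 SE, limma adjusted p = 0.543). Tmem119, another microglial gene, did not pass the test under total scaling (-0.08), and under median-of-ratios scaling it was called lower (-0.20, limma adjusted p = 0.0453). One member stood apart. Olfml3 had 14.15, 19.2 and 39.1 CPM in the rich libraries, against 2.50, 5.21 and 10.4 CPM in the poor ones, with no overlap (difference 1.80).

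MHC class II genes, by which antigen-presenting cells show peptides to T cells, were higher for 6 of 7 tested (5, with 1 lower, under median-of-ratios scaling). Cd74, the invariant chain, had 11.8, 41.4 and 110 CPM in the rich libraries, against 2.06, 6.57 and 20.3 CPM in the poor ones (difference 2.25 ± 0.19 SE, limma adjusted p = 4.96e-16), and 24 rich libraries were above all poor ones. The chains RT1-Da, RT1-Ba and RT1-Bb differed by 2.18, 1.93 and 1.91, RT1-Db1 by 0.65, and the peptide loading gene RT1-DMa by -0.14, which did not pass the test (limma adjusted p = 0.152) and was called lower under median-of-ratios scaling (-0.26, limma adjusted p = 0.00984). RT1 genes have near copies and differ between rat strains, so the split of reads between them is uncertain. In outbred animals RT1-Db1 had medians of 8.22 CPM in rich and 5.10 CPM in poor libraries. Of 12 lymphocyte markers none passed the filter, and their summed level was 0.433, 1.62 and 5.44 CPM in the rich libraries, against 0.129, 0.550 and 1.64 CPM in the poor ones.

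Class II promoters share a Y box, an inverted CCAAT element bound by nuclear factor Y, and the promoters of the 4 chain genes are shown because they hold it. Each line gives the 150 bases before the RefSeq gene start (GRCr8), 5′ to 3′ on the gene's strand, with the Y box CTGATTGG in capitals.
RT1-Da: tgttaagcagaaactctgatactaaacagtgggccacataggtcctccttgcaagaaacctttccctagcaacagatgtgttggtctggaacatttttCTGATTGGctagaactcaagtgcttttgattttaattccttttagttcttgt
RT1-Ba: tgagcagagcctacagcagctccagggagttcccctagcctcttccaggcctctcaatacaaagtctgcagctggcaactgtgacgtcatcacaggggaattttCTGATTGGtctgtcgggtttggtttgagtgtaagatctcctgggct
RT1-Bb: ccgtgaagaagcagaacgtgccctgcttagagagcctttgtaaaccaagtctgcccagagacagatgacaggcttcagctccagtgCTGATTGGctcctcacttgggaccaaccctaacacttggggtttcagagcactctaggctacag
RT1-Db1: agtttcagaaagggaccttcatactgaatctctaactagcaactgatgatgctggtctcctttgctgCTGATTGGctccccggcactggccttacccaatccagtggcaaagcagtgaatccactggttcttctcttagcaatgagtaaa
They lie at chr20:4515265-4515414 and chr20:4576907-4577056 on the plus strand (RT1-Da and RT1-Ba) and at chr20:4604119-4604268 and chr20:4560163-4560312 on the minus strand (RT1-Bb and RT1-Db1). The box begins 52, 46, 64 and 83 bases before the start in RT1-Da, RT1-Ba, RT1-Bb and RT1-Db1. On either strand of the 250 bases before the start, CTGATTGG was found in 4 of the 6 class II genes with a promoter in the table and in 3.19% of 33469 rat promoters. The shorter CCAAT, which the Y box contains in inverted form, was found in 6 of 6 and in 34.0%. RT1-DMa and Cd74 were the class II promoters without the exact letters of the box. The 4 genes that hold the box include RT1-Db1, whose difference was small, and Cd74 without it differed by 2.25.

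Complement genes were higher for 10 of 11 tested, beside the 49.6% of all genes, with a median of 1.25. C7, a component of the membrane attack complex, had 65.1, 98.3 and 193 CPM in the rich libraries, against 3.43, 7.81 and 16.8 CPM in the poor ones, with no overlap (difference 3.54 ± 0.11 SE, limma adjusted p = 1.11e-35). C4a (2.27), the inhibitor Serping1 (2.03) and the proteases C1r (1.67) and C1s (1.66) followed, and C4a and C4b are near copies. C3, the central component of complement, had 8.67, 19.0 and 32.0 CPM in the rich libraries, against 5.78, 15.8 and 36.1 CPM in the poor ones (difference 0.26 ± 0.14 SE), and did not pass the test, though it did without the relabelled libraries (0.34, limma adjusted p = 0.0369). Interferon response genes were higher for 11 of 13 tested, beside the same 49.6% of all genes (median 0.53), with Mx1 (1.07) and Bst2 (1.05) at the top. Ptgds, the prostaglandin D2 synthase of meninges and oligodendrocytes, had 662, 1809 and 6054 CPM in the rich libraries, against 326, 500 and 1069 CPM in the poor ones (difference 1.85 ± 0.14 SE, limma adjusted p = 1.28e-17).

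Astrocyte genes were listed apart for the glia limitans with the endfeet and for astrocytes in general. Of 11 subpial and endfoot genes 9 were higher and 1 lower, with a median of 1.02. Gfap, the intermediate filament of fibrous and subpial astrocytes, had 1205, 1964 and 4352 CPM in the rich libraries, against 209, 567 and 1122 CPM in the poor ones, with no overlap (difference 1.90 ± 0.15 SE, limma adjusted p = 3.23e-17). Vim (2.32), which fibroblasts and endothelium share, Cd44 (1.57) and Myoc (1.22) differed likewise. Aqp4, the endfoot water channel, had 904, 1495 and 2382 CPM in the rich libraries, against 443, 772 and 1178 CPM in the poor ones (difference 1.10). The 1 lower member was the potassium channel gene Kcnj10 (-0.34), whose channel also sits in endfeet.

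General astrocyte genes had a median of 0.11 (-0.01 under median-of-ratios scaling), with 5 of 12 higher and 2 lower. Those shares are near the 49.6% and 18.6% of all genes. Slc1a2, the glutamate transporter of astrocytes throughout the brain, had 1014, 1413 and 1738 CPM in the rich libraries, against 961, 1386 and 2624 CPM in the poor ones (difference 0.01 ± 0.07 SE, limma adjusted p = 0.945). Aldoc (-0.23), a glycolytic enzyme gene, was 1 of the 2 lower members. Aldh1l1, used as a marker of all astrocytes, departed from these with 50.2, 79.1 and 165 CPM in the rich libraries, against 21.4, 33.5 and 55.5 CPM in the poor ones (difference 1.29).

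Myelin and mitochondrial genes were lower by small amounts, and synaptic genes were divided. Of 13 oligodendrocyte genes 12 were lower and none higher, with a median of -0.25, beside the 18.6% of all genes called lower. In the decimal libraries alone 3 of the 13 were lower, beside 6.01% of all genes. In the libraries on neither side 5 fell and 1 rose with the score, beside 13.8% and 36.9% of all genes. Mbp, the myelin basic protein, had 8524, 11976 and 16537 CPM in the rich libraries, against 11621, 16754 and 28700.1 CPM in the poor ones (difference -0.49 ± 0.08 SE, limma adjusted p = 4.18e-07). Mag differed by -0.44. Of 10 genes of oligodendrocyte precursors 5 were lower and 4 higher, with Olig1, a factor of the lineage, at -0.60. Mbp kept its direction and lost the call within the decimal libraries. All 19 nuclear genes of oxidative phosphorylation were lower, with a median of -0.32 and a range from -0.65 (Cox5a) to -0.10 (Ndufs4), and the sign of Ndufs4 was positive in the decimal libraries (0.04), where 8 of the 19 were called lower. Of 13 synaptic vesicle genes 7 were lower and 2 higher (9 and 1 under median-of-ratios scaling; median -0.22), with Snap25 at -0.46 and Syt1 at 0.37. Cytosolic ribosomal protein genes had a median of 0.02 with 5 of 19 higher and 1 lower, and -0.11 with 1 higher and 9 lower under median-of-ratios scaling. In the same libraries the annotated ribosomal RNA genes summed to 1639, 4705 and 23618 CPM on the rich side, against 3058, 14226 and 35721 CPM on the poor side, and the part of this in the other differences was not tested.

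Dopamine neuron genes gave no common direction. Of 18 tested 9 were higher and 1 lower (6 and 1 under median-of-ratios scaling), with a median of 0.19, and the share that was higher is close to the 49.6% of all genes. In the decimal libraries alone 2 were higher and none lower, beside 28.7% of all genes called higher there. Th had 647, 1775 and 2293 CPM in the rich libraries, against 581, 1812 and 3602 CPM in the poor ones (difference -0.07 ± 0.12 SE, limma adjusted p = 0.614), although it was called lower within the hexadecimal libraries (-0.28, limma adjusted p = 0.0473). Slc6a3, the dopamine transporter, had 288, 856 and 1491 CPM in the rich libraries, against 117, 568 and 1289 CPM in the poor ones (difference 0.72 ± 0.17 SE, limma adjusted p = 0.000143). Aldh1a1, a marker of ventral dopamine neurons in rodents, differed by 0.63, Gad2, which makes GABA, by 0.76, and Slc17a6, the vesicular glutamate transporter of the midbrain, by -0.58. Slc6a3 and Gad2 lost the call within the decimal libraries.

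Of the neuronal lists with at least 5 genes tested, the interpeduncular and habenular markers had the highest median, 0.70, with 7 of 9 higher and 1 lower. Chrna2, a nicotinic receptor subunit gene of the interpeduncular nucleus, had 0.543, 52.3 and 108 CPM in the rich libraries, against 0.243, 4.48 and 45.1 CPM in the poor ones (difference 2.59 ± 0.40 SE, limma adjusted p = 9.18e-08). It exceeded 20 CPM in 24 rich and 5 poor libraries, and yet the library with the highest score of all had only 1.66 CPM. Chrnb4 (1.35), Chrna5 (0.94) and Nkx6-1 (0.86) differed in the same direction, while Sst (-0.02) did not pass the test and Pou4f1, a habenular and red nucleus factor, was lower (-0.45). Htr1a, a serotonin receptor gene, had 8.30, 50.7 and 90.4 CPM in the rich libraries, against 6.81, 17.8 and 54.4 CPM in the poor ones (difference 1.11), while Tph2, which serotonin neurons need to make serotonin, had medians of 2.28 and 1.68 CPM in rich and poor libraries and did not pass the test (-0.03).

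**Figure D4:**
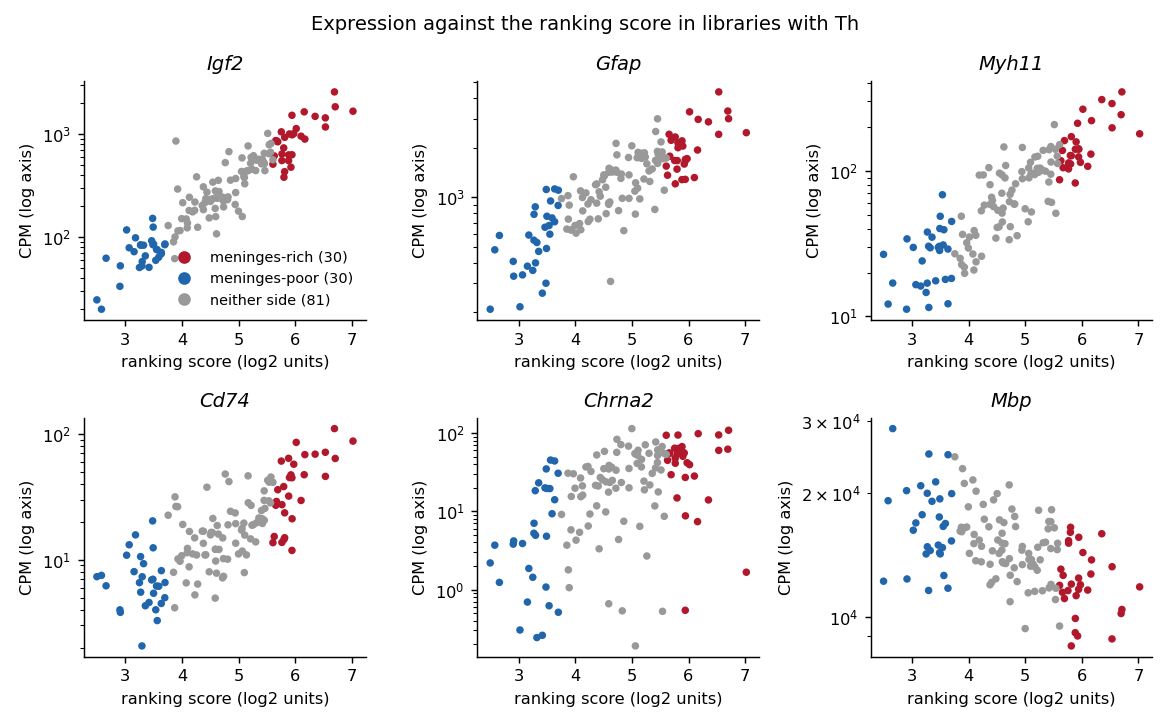
CPM on a log axis against the ranking score in the libraries with Th, with meninges-rich libraries in red, meninges-poor ones in blue and those on neither side in grey. Igf2, Gfap, Myh11 and Cd74 climb across the grey libraries, Chrna2 reaches a ceiling near 100 CPM with some libraries near 1 CPM at every score, and Mbp declines.

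The 10 named genes with the most negative difference were Cartpt, C1ql2, C1ql4, Grifin, Scn4b, Mdfic2, Cabp7, Plvap, Cbln1 and Spp1. They were picked for the same sign in both identifier formats and ran from -2.45 for Cartpt to -1.27 for Spp1. Cartpt, a neuropeptide precursor gene, had 0.951, 2.66 and 18.3 CPM in the rich libraries, against 1.48, 13.1 and 613 CPM in the poor ones (difference -2.45 ± 0.51 SE, limma adjusted p = 2.92e-05). It exceeded 100 CPM in 9 poor libraries and in none of the rich ones. C1ql2, a synaptic organiser, had 3.38, 13.5 and 122 CPM in the rich libraries, against 14.2, 86.6 and 248 CPM in the poor ones (difference -2.20 ± 0.30 SE, limma adjusted p = 5.97e-09). Its relatives C1ql4 and Cbln1 differed by -1.85 and -1.28. Scn4b, a sodium channel subunit that allows rapid firing, had 14.3, 46.1 and 196 CPM in the rich libraries, against 19.8, 198 and 388 CPM in the poor ones. Spp1 (osteopontin) had 12.3, 117 and 570.0 CPM in the rich libraries, against 56.9, 293 and 984 CPM in the poor ones. All 10 overlapped between the sides.

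The neurofilament and parvalbumin genes were picked after their values were seen. The neurofilament light chain gene Nefl had 239, 399 and 1951 CPM in the rich libraries, against 265, 1305 and 3690 CPM in the poor ones (difference -1.26 ± 0.20 SE, limma adjusted p = 3.31e-07). Nefh and Nefm differed by -1.25 and -1.15, and Pvalb (parvalbumin), a calcium buffer of fast-firing neurons, by -1.19. In the bone, cartilage and muscle list 4 of 5 genes tested were lower and 1 higher. Acan, the aggrecan core protein of cartilage and of perineuronal nets, had 2.32, 6.402 and 14.0 CPM in the rich libraries, against 3.23, 13.8 and 29.3 CPM in the poor ones (difference -0.88 ± 0.15 SE, limma adjusted p = 4.63e-07).

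Markers of other tissues near the brain surface are read beside the 49.6% of all genes called higher. Of 12 genes of Schwann cells and nerve sheath, the myelinating cells of cranial nerves, 7 were higher and none lower, with a median of 0.49. That share is near the one of all genes under total scaling. Under median-of-ratios scaling 7 were higher and 2 lower, beside 33.1% and 33.5% of all genes. By at least 1 unit beyond the all-gene median 3 of the 12 were higher, beside 2.57% of all genes. Prx (1.27) and Itgb4 (2.34) were among the higher ones, whereas Pmp2 (0.14) did not pass the test. Of 8 erythrocyte genes 6 were higher and none lower, and Hba-a1, an alpha globin gene with near copies, had 213, 429 and 3046 CPM in the rich libraries, against 41.45, 199.9 and 949 CPM in the poor ones. The 13 choroid plexus markers summed to medians of 445 CPM in the rich and 472 CPM in the poor libraries. On neither side the highest sum was 14935 CPM. Of 8 tested, 2 rose and 1 fell with the score in the libraries on neither side (median slope -0.07), beside 36.9% and 13.8% of all genes. Between the sides 5 of the 8 were higher and 1 lower (median 0.61). The higher ones included Kcnj13 (4.46 CPM in the median rich library, against 0.467 CPM in the median poor one) and Ttr, whose medians were 1.59 CPM in the rich and 0.0768 CPM in the poor libraries. Of 8 ependyma genes 7 were higher, led by the ciliogenesis factor Foxj1 (1.07). Folr1, which defines choroid plexus epithelium, reached at most 2.04 CPM in the rich and 1.14 CPM in the poor libraries. Kit, the single mast cell marker tested, differed by 1.31, but the mast cell protease Cpa3 stayed at or below 0.387 CPM in the rich and 0.906 CPM in the poor libraries. The part of these tissues in the differences above was not tested.

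Of 163 named genes 11 kept their direction but lost the call in decimal libraries, among them Mbp, Slc6a3, Gad2, Crabp1 and Peg3. For 2084 genes (13.4%), Myh11 among them, the difference itself differed between formats. The differences of the genes given next kept their direction in both identifier formats. In decimal and hexadecimal libraries they were 3.26 and 3.90 for Igf2, 1.90 and 2.97 for Myh11, 1.39 and 2.19 for Gfap, and 1.62 and 1.85 for Mrc1. They were 2.32 and 2.20 for Cd74, 2.70 and 2.53 for Chrna2, -1.27 and -1.34 for Plvap, and -2.91 and -2.19 for Cartpt. The 10 highest and 10 lowest genes named above were picked for the same sign in both formats, so their sign is no result. They also kept the call in each format.

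The libraries on neither side were not used in the comparison of the sides, but their score comes from the same 3 ranking genes. They also entered the filter on low values, so a shared direction repeats the tie to those genes and is no independent support. Across these 81, with a slope of log2(CPM + 1) on the score fitted by limma, 5735 genes rose (36.9%) and 2142 fell (13.8%) with the score, and the median slope was 0.06 per unit. Of the 399 genes higher by 1 unit, 384 (96.2%) had a positive slope past the threshold, and of the 51 lower ones 46 (90.2%) had a negative one. None had a called slope of the opposite sign. The slopes were 1.28 ± 0.12 SE for Igf2, 1.37 ± 0.08 SE for Col1a2 and 1.48 ± 0.17 SE for Pappa2. Outside the fibroblasts they were 1.11 for Myh11, 0.74 for Mrc1, 0.70 for Gfap and Cd74, 0.93 for Chrna2, -0.82 for Plvap and -1.23 for Cartpt. Some genes that differed between the sides had no called slope here, among them Kcnj13 (0.36, limma adjusted p = 0.0796), Chrnb4 (0.32, limma adjusted p = 0.156), RT1-Db1 (-0.10, limma adjusted p = 0.551), Mag (-0.09, limma adjusted p = 0.0912) and Hba-a1 (0.40, limma adjusted p = 0.0773). P2ry12, which did not differ past the threshold between the sides, had a called slope of 0.19 (limma adjusted p = 0.0203).

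**Figure D5:**
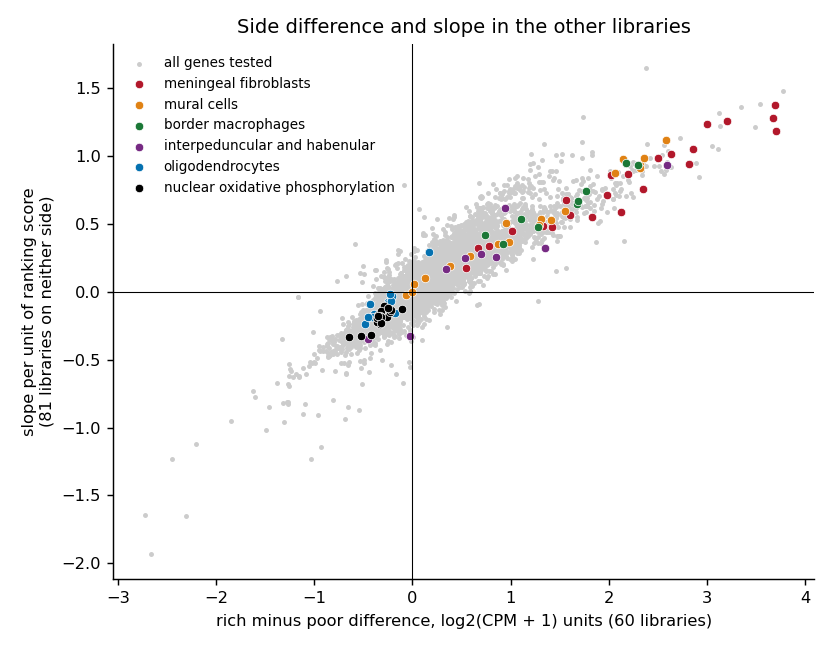
Slope of log2(CPM + 1) per unit of ranking score in the 81 libraries on neither side against the difference between meninges-rich and meninges-poor libraries, one point per gene tested, with 6 lists in colour. Fibroblast, macrophage and most mural genes lie at the upper right. The mural genes Kcnj8, Abcc9 and Higd1b lie near a difference of 0. Oligodendrocyte and oxidative phosphorylation genes lie near or below 0 on both axes.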

How the data were processed

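The deposited table holds log2 values, which the authors made from kallisto 0.48 estimated counts, per the submitters' processing notes. The values behave as log2(estimated count + 1), since, below 100, 55.7% of them become whole numbers within 0.001 when the transformation is undone. No label states this. For the genome build, the sources used here name none. Of 38278 genes with a symbol in the RefSeq reference, 100% have a deposited position that is an end of the gene in GRCr8. The values were back-transformed, scaled to CPM and taken as log2(CPM + 1). Genes needed a mean of at least 1 over the libraries with Th. Differences between the sides, slopes on the score in the 81 other libraries, and the interaction of side and format were fitted with limma 3.58.1 (R 4.3.3, eBayes with trend, identifier format as covariate), two-sided, with Benjamini-Hochberg adjustment over 15543 genes. A threshold of 1 log2 unit beyond the all-gene median was added after the data were seen. Only the fit of the sides was tried on simulated data, with known changes added to genes drawn independently and with the sides preset. The choice of the sides, the slopes and the interaction were not simulated.

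Named genes are the 10 highest and 10 lowest per comparison with the same sign in both formats (a rule not applied to the interaction), and members of 51 lists. Others were chosen after their values were seen. Members and lists were chosen with earlier results of these data known. No label says whether libraries come from separate animals, so p-values measure the spread between libraries. Scaling, pseudocount, filter, number a side, format, depth and covariates were varied. Sequences are from RefSeq (GRCr8).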

Additional observations from a re-analysis of the deposited data

Results flagged for a closer look

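The difference between meninges-rich and meninges-poor libraries itself differed between decimal and hexadecimal identifiers for 2084 genes (13.4% of those tested, limma interaction, Benjamini-Hochberg adjusted). The decimal difference minus the hexadecimal one, with signs kept, was positive for 1121 and negative for 963. A positive value can thus also stand for a smaller decrease in decimal libraries. Of the 450 genes changed by at least 1 log2 unit, 89 were among the 2084. Among the genes discussed above, negative values were those of Igfbp5 (-1.69), Myh11 (-1.07), Cd44 (-0.82), Serping1 (-0.76), C4a (-0.75), Foxj1 (-0.70), Myl9 (-0.67), Aldh1l1 (-0.61), Aqp4 (-0.61) and Igf1r (-0.36). All of these except Igf1r were higher on the rich side in both formats, by less in decimal libraries. The values were positive for RT1-DMa (0.55), Olig1 (0.46) and Ndufs4 (0.22). Genes not discussed above went further. Gins2 (1.69), Rad52 (1.62) and Lnc-hc (1.45) had the greatest positive values among genes with a named symbol. Zfp532 (-2.34) and Rplp2l2 (-2.21) had the most negative ones. Zfp532, a zinc finger gene, had an interaction of -2.34 and was extreme in single libraries, with 514, 1856 and 16064 CPM in the rich libraries, against 625, 3142 and 83157 CPM in the poor ones. It was lower in rich decimal libraries (-2.08) and not in hexadecimal ones (0.26). What sets the formats apart is not given by the labels, and its part in these differences was not tested.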

How the results depend on the processing

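Restricting the fit to decimal identifiers left 4459 genes higher and 934 lower, and 258 higher by 1 unit, with fewer libraries. With 20 libraries a side 86 genes were lower by 1 unit. A pseudocount of 0.1 gave 628 higher and 93 lower by 1 unit, a pseudocount of 10 gave 97 and 23, and a filter at a mean of at least 3, which tests fewer genes, gave 220 and 31. Median-of-ratios scaling gave 5141 higher and 5201 lower, and upper quartile scaling 4917 and 5461. In the libraries on neither side, median-of-ratios scaling gave 3592 rising and 3779 falling genes, and decimal identifiers alone 745 and 192. Named genes that changed sign were Igf1r (-0.0217) and Ndufs4 (0.0365) in decimal libraries, and Rdh10 under median-of-ratios (-0.00017) and upper quartile scaling (-0.0121), each without a call. The cause was not tested. Named genes that lost the call in decimal libraries were Aldoc, Bnc2, Crabp1, Flt4, Gad2, Igf2r, Mbp, Peg3, Rdh10, Slc6a3 and Sparc, and in hexadecimal ones Dhrs3, Plod3, Pou4f1 and Rdh10. With the other scalings Dhrs3, Igf1r, Plod3 and Sparc lost it. Without the relabelled libraries Rdh10 lost it. With 40 libraries a side Dhrs3, Snrpn and Ttr lost it. Of 163 named genes, 149 kept direction and side of the threshold in decimal libraries and 154 under either other scaling. All 163 did so without a covariate, with total count or Xist as covariate, with either pseudocount, without the library with over 1000 CPM of Gh1, and without the 4 libraries with over 100 CPM of the pituitary list, the last 2 settings having been chosen after seeing the data. No paired analysis was possible because the labels carry no replicate numbers. Fibroblasts of the meninges and those around vessels share the ranking genes and cannot be told apart by the score, and values of genes near 1 CPM rest on few counts.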
